A study of Homo sapiens with 4 samples.

Results

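The genes described here are 10 enzymes of sulfur amino acid and glutathione metabolism. MAT2A, AHCY, CBS, CTH, GCLC, GCLM and GSS act on the way from methionine through cysteine to glutathione. CHAC1 breaks glutathione down, and MPST and CDO1 use cysteine for other ends. The 10 genes were read by 20 of 54613 probe sets, all those whose only gene symbol in the platform annotation is one of the 10. In all, 19775 genes were measured. The set was chosen from earlier results of the same contrast, in which CTH had a large difference, and by the known roles of the other enzymes. The differences between induced and control cells below are therefore a description, and they support nothing beyond the values themselves.

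The induced group is the human glioblastoma line LN-229, an established cell line, after 48 h of doxycycline to express WIF1, which is secreted and holds WNT ligands away from their receptors. The control group is LN-229 without that treatment. Each group had 2 arrays, which the labels call biological replicates, and every value below has n = 2 per group. No array had doxycycline without WIF1, so effects of the drug and of WIF1 cannot be told apart. The labels do not say which promoter drives WIF1, whether the cells are 1 clone, or whether the control cells carry the WIF1 construct. If they do not, induction and the engineering of the cells cannot be told apart. The comparison asks which transcripts differ once WIF1 has been induced in these cells.

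In the methionine cycle, methionine is activated to S-adenosylmethionine, the methyl donor of the cell, and then turned into homocysteine. Transsulfuration passes the sulfur of homocysteine to cysteine, which also enters cells as imported cystine. Cysteine limits the synthesis of glutathione, the main thiol that protects cells from oxidants. The stress factor ATF4 is known to raise CTH and CHAC1 when amino acids run short, and the oxidant sensor NRF2 is known to raise GCLC and GCLM.

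The window of 250 bases before to 50 bases after the annotated start is shown for 3 of the genes. CTH had the largest difference of the 10, and CHAC1 and GCLM held a match to a searched motif. A CBS window also held a match and is not shown. The sequences are from RefSeq on GRCh38.p14, 5′ to 3′ on the strand of the gene. That of CTH is chr1:70411018-70411317 on the plus strand, that of CHAC1 chr15:40953221-40953520 on the plus strand and that of GCLM chr1:93909381-93909680 on the minus strand. Capitals mark a match, which here always reads on the opposite strand.
CTH: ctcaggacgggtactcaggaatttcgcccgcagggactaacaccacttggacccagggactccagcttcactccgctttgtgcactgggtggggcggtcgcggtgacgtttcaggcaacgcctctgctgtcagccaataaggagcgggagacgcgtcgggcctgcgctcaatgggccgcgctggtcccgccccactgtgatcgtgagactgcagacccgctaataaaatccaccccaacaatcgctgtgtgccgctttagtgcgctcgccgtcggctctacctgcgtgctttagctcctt
CHAC1: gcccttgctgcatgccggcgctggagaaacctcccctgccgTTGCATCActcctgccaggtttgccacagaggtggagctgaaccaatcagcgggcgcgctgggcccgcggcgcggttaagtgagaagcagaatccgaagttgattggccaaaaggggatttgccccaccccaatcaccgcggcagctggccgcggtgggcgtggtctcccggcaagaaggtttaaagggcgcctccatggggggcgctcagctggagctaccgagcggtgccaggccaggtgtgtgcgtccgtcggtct
GCLM: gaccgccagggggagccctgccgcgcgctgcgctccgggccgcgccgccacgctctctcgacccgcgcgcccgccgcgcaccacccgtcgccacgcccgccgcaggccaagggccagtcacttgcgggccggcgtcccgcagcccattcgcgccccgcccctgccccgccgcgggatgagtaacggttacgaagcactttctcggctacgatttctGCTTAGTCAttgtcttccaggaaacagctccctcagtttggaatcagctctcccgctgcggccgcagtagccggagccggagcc

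Both strands were searched for TGATGNAA, the core of the C/EBP-ATF response element through which ATF4 can act, and for TGACNNNGC, the core of the antioxidant response element bound by NRF2. The promoter table held 12 windows of 8 of the 10 genes. The first motif was found in 1 of these windows, that of CHAC1 at positions -209 to -202 from the start, and in 3.62% of all 35116 windows. The second was found in 2 of the 12, in GCLM at -34 to -26 and in 1 of the 3 CBS windows at -83 to -75, and in 13.3% of all windows. No 2 matches overlapped. The window of CTH held neither run of letters, which says nothing about sites elsewhere.

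Facts of the whole series that touch these values are few. The single WIF1 probe set was near the floor, at 2.93 and 3.03 in the induced arrays and 2.98 and 2.90 in the controls, so it did not check the induction. Whether it lies within the expressed sequence is not known here. Of the glioma markers, VIM, NES and CD44 were bright, while GFAP, SOX9 and AQP4 lay below the median level of all probe sets (6.16). The ACTB difference between its 3' and 5' control sets was 0.033 and 0.11 in the induced arrays and -0.036 and 0.021 in the controls. For GAPDH it was -0.043 and -0.047 in the induced arrays and -0.067 and -0.069 in the controls. For the dap transcript it was 2.30 and 2.81 in the induced arrays and 2.31 and 2.40 in the controls. The second induced array thus had the highest value in dap, which is spiked in and is not RNA of the cells. That array was also highest in ACTB, by less, but not in GAPDH. The part of RNA quality in the results below was not tested.

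CTH in both of its probe sets and, by less, CHAC1 in its only 1 had higher signals in each induced array than in either control. The same held for some but not all probe sets of CBS, GCLC and GCLM, by up to 0.36 against 0.25 for CHAC1. In all, 7 of the 20 probe sets were so placed, against 17.9% of all probe sets. Most probe sets of the other enzymes differed by less than CHAC1, and several genes had probe sets that disagreed. CTH stood at 2.41 times its control level in its brighter probe set. The difference of that probe set was the largest of any on the array. The plot of levels by array shows the widest separation of the groups for CTH.

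**Figure D1:**
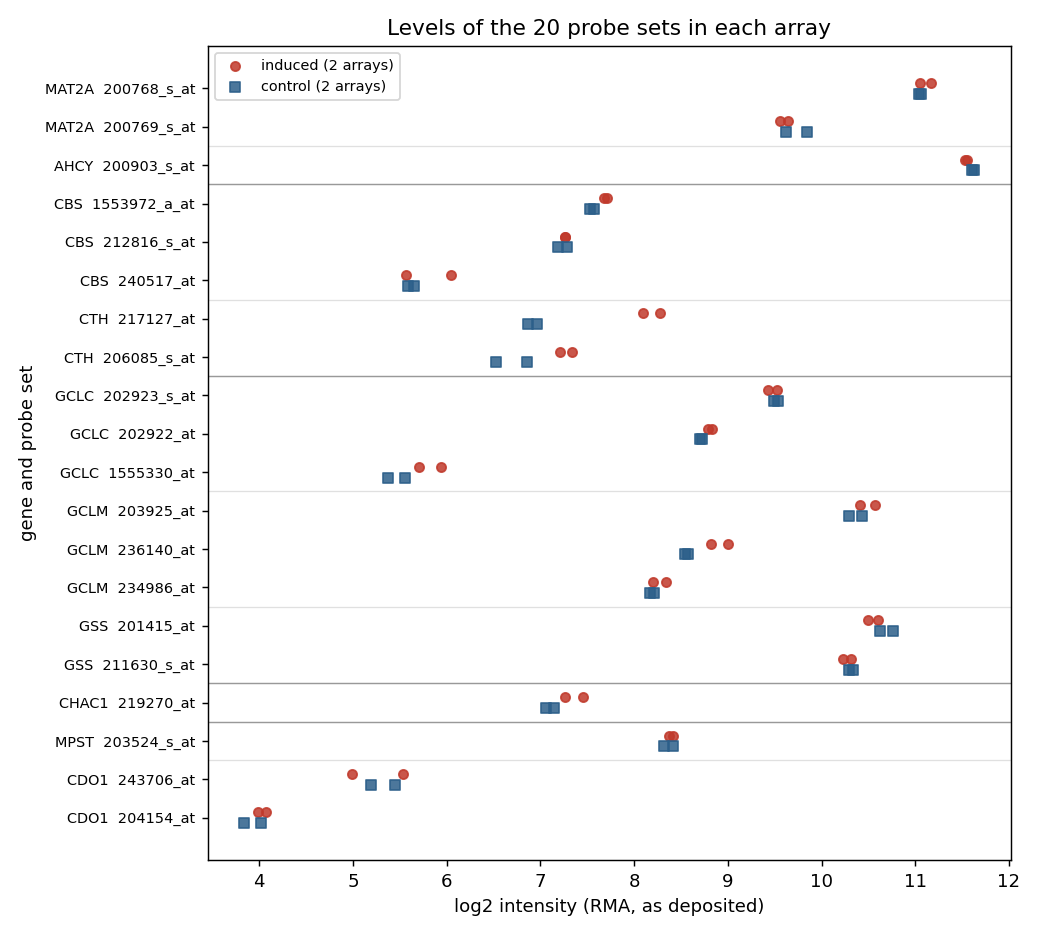
Log2 intensity of each of the 20 probe sets in the 2 induced arrays (red circles) and the 2 control arrays (blue squares). Rows are ordered by role in the pathway, and the probe sets of CTH are separated most, with 8.09 and 8.27 in the induced arrays and 6.96 and 6.87 in the controls for the brighter probe set.

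Both genes of the methionine cycle were bright and close between groups. MAT2A makes S-adenosylmethionine from methionine and lies on chromosome 2. Its brighter probe set gave 11.05 and 11.17 in the induced arrays and 11.06 and 11.04 in the controls, a difference of 0.06 (SE 0.048). Its other probe set gave 9.64 and 9.56 in the induced arrays and 9.84 and 9.62 in the controls, a difference of -0.13 (SE 0.078). The 2 probe sets pointed in opposite directions, and in both the groups overlapped. The second of them was -0.02 without the first control array and -0.24 without the other control. AHCY splits S-adenosylhomocysteine to homocysteine and lies on chromosome 20. It stood at 11.53 and 11.56 in the induced arrays and at 11.60 and 11.63 in the controls, a difference of -0.07 (SE 0.034). The 4 arrays of AHCY spanned little, but both induced values lay below both controls.

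Transsulfuration takes 2 enzymes, and they differed by unequal amounts. CBS joins homocysteine and serine to cystathionine and lies on chromosome 21. Its brightest probe set, 1553972_a_at, gave 7.68 and 7.71 in the induced arrays and 7.53 and 7.58 in the controls, a difference of 0.14 (SE 0.063). The other CBS probe sets differed by 0.03 (SE 0.071) and 0.19 (SE 0.16), and their groups overlapped. In the dim one the difference came from the second induced array, with 5.56 and 6.05 in the induced arrays and 5.58 and 5.65 in the controls, and without that array it was -0.05.

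CTH, cystathionine gamma-lyase, cleaves cystathionine to release cysteine and lies at chr1:70411268-70439851 (GRCh38.p14). Its brighter probe set, 217127_at, gave 8.09 and 8.27 in the induced arrays and 6.96 and 6.87 in the controls. The gap between the groups was wide, against 0.18 between the induced arrays and 0.092 between the controls. The difference was 1.27 (SE 0.084), with an adjusted p of 0.0994 in the limma fit over all probe sets. The other probe set, 206085_s_at, gave 7.34 and 7.21 in the induced arrays and 6.53 and 6.85 in the controls, which also do not overlap. Its difference was 0.58 (SE 0.12, adjusted p = 0.472), 1.50-fold, so both probe sets of CTH pointed up but by unequal amounts. Neither passed the threshold of 0.05 in that fit. CTH did under 5 of 13 other settings (robust eBayes, arrays centred on their medians, cyclic loess, and probe sets averaged or 1 per gene), with adjusted p values of 0.0213 to 0.0449, and under the other 8 the range was 0.0801 to 0.901. Leaving out any 1 array kept the difference between 1.18 and 1.36, with 1.18 when the second induced array was left out.

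Glutathione is made in 2 steps, and the 3 genes for them did not share a direction. GCLC is the catalytic subunit of glutamate-cysteine ligase, the first step, and lies on chromosome 6. Its brightest probe set gave 9.42 and 9.52 in the induced arrays and 9.49 and 9.53 in the controls, a difference of -0.04 (SE 0.053) with overlapping groups. A second probe set gave 8.83 and 8.79 in the induced arrays and 8.70 and 8.72 in the controls, a difference of 0.09 (SE 0.051). The dim one, 1555330_at, gave 5.71 and 5.94 in the induced arrays and 5.56 and 5.38 in the controls, a difference of 0.36 (SE 0.12, adjusted p = 0.472). The GCLC probe sets thus disagreed, and the one with the largest difference lay below the median level of the array.

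GCLM, the modifier subunit that makes GCLC more efficient, lies at chr1:93885199-93909430. Its brightest probe set gave 10.42 and 10.57 in the induced arrays and 10.43 and 10.30 in the controls, a difference of 0.13 (SE 0.069) with overlapping groups. Leaving out 1 array moved it between 0.05, without the second induced array, and 0.20, without the first. The probe set 236140_at gave 8.82 and 9.00 in the induced arrays and 8.57 and 8.55 in the controls. Here both induced arrays lay above both controls, by 0.35 on average (SE 0.072, adjusted p = 0.472). The remaining GCLM probe set differed by 0.08 (SE 0.069), and by 0.0035 without the first induced array and 0.15 without the second. Over all arrays all 3 pointed up but only 236140_at had groups that did not overlap. GSS, which adds glycine in the second step, lies on chromosome 20. Its brighter probe set gave 10.61 and 10.49 in the induced arrays and 10.63 and 10.76 in the controls, a difference of -0.14 (SE 0.062), and both induced arrays lay narrowly below both controls. It was -0.08 without the second control array and -0.21 without the first. Its other probe set gave -0.04 (SE 0.046) with overlapping groups. In their brightest probe sets the 3 genes had a median of -0.04, and 0 of them had an unadjusted p under 0.05.

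CHAC1 degrades glutathione in the cytosol to a cysteinylglycine dipeptide and lies at chr15:40953471-40956512. It stood at 7.45 and 7.27 in the induced arrays and at 7.15 and 7.06 in the controls, a difference of 0.25 (SE 0.087, adjusted p = 0.472). The lower induced array was only a little above the higher control. Without the first induced array the CHAC1 difference was 0.16, and without the second it was 0.35.

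The enzymes that use cysteine for other ends had small differences. MPST, which moves sulfur from mercaptopyruvate and can give hydrogen sulfide, lies on chromosome 22. It gave 8.37 and 8.41 in the induced arrays and 8.32 and 8.42 in the controls, a difference of 0.02 (SE 0.061). CDO1, which oxidises cysteine on the way to taurine and sulfate, lies on chromosome 5. Its 2 probe sets were dim, below the median level of the array. The brighter one gave 4.99 and 5.54 in the induced arrays and 5.19 and 5.45 in the controls, a difference of -0.05 (SE 0.19), and the other one gave 0.10 (SE 0.11). For MPST and both CDO1 probe sets the gap between the control arrays was larger than the difference between the groups.

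**Figure D2:**
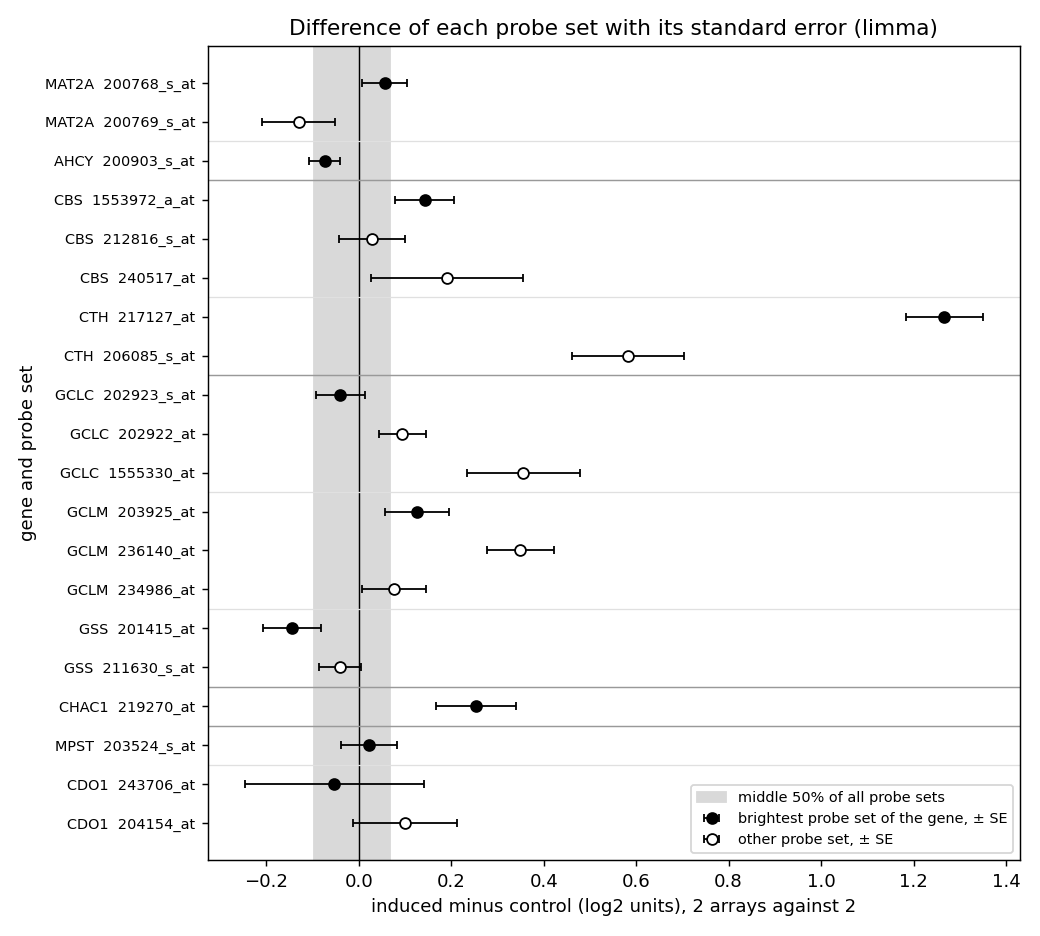
Induced minus control difference of each of the 20 probe sets on the log2 scale with its limma standard error, 2 arrays against 2. The grey band holds the middle 50% of all probe sets (-0.10 to 0.07), and CTH lies far outside it at 1.27 and 0.58.

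Counted over the 20 probe sets, 14 were higher and 6 lower by sign, with a median difference of 0.09 against -0.01 over all 54613. No probe set of the 10 genes passed an adjusted p of 0.05, and the same held for the whole array (0%). At an unadjusted p under 0.05, 5 of the 20 were higher (2 of CTH and 1 each of GCLC, GCLM and CHAC1) and 0 lower, against 4.75% higher and 5.27% lower of all probe sets. The groups did not overlap in 7 probe sets that were higher and 2 that were lower, against 17.9% and 23.5% of all. Nothing is read from these counts, since CTH was in view when the set was chosen. Without its 2 probe sets the median of the other 18 was 0.07, with 3 higher at an unadjusted p under 0.05. After each array was centred on its median, 6 of the 20 were higher and 0 lower at that p. Of all 54613 probe sets, 3477 were then higher and 1869 lower. Higher ones thus made up 65.0% of the probe sets past that p, against 47.4% as deposited. Of the 20, 16 had a mean at or above the median level, and no filter on low values was used.

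**Figure D3:**
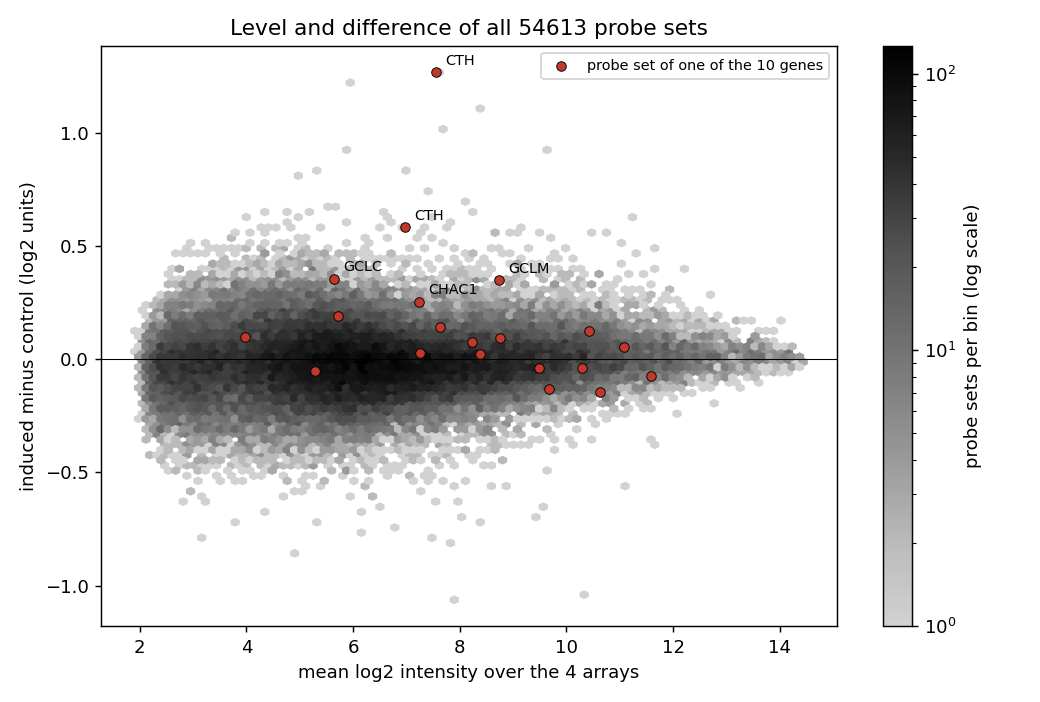
Mean log2 intensity (horizontal) and induced minus control difference (vertical, log2 units) of all 54613 probe sets in grey, with the 20 probe sets of the 10 genes in red. Gene names mark the 5 with an unadjusted p under 0.05, and the higher CTH point, at 1.27, is the top of the whole array.

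The 3 genes whose brightest probe set was most like that of CTH over the 4 arrays, by root mean square distance of the deviations from each mean, were EPOR at 0.10, IL1A at 0.14 and IL6 at 0.17. They encode the erythropoietin receptor and a pair of cytokines. EPOR gave 8.75 and 9.02 in the induced arrays and 7.90 and 7.67 in the controls. Among the other 9 enzymes CHAC1 was nearest, at a distance of 0.52 and as the 805th nearest of all genes. With 4 arrays this measure mostly picks genes with a difference of like size.

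Lists of other genes of the pathway, each represented by its brightest probe set, were set beside these values. With p-values adjusted over all 54613 probe sets, no listed gene passed 0.05, as was the case for all 19775 genes (0%). With limma refitted and adjusted over the 19775 brightest probe sets alone, 9 genes passed, CTH among them (adjusted p = 0.0246). At an unadjusted p under 0.05, 6.48% of all genes were higher and 4.73% lower, and the median of all genes was -0.003. After centring of the arrays that median was 0.02. The list medians of cysteine oxidation (0.02) and of glutathione S-transferases (0.005) then turned positive, and that of methionine salvage turned to -0.005 after cyclic loess. The methionine cycle (11 genes) had a median of 0.04, with 1 gene higher at that p and 0 lower. It was AHCYL1, a relative of AHCY, at 0.12 (SE 0.040), but its other probe sets gave -0.01, -0.03 and -0.33. Methionine salvage and polyamine synthesis (8 genes) had a median of 0.01, with 1 higher and 2 lower. AMD1, which decarboxylates S-adenosylmethionine for polyamines, differed by -0.17 (SE 0.041) and in its other probe set by -0.12. SMS, spermine synthase, differed by 0.19 (SE 0.051), and MTAP, which cleaves the methylthioadenosine left by polyamine synthesis, by -0.12 (SE 0.043), with other MTAP probe sets from -0.32 to 0.22.

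In transsulfuration and sulfide oxidation (7 genes, 3 of them among the 10) the median was 0.02, and CTH was the 1 gene past that p. The sulfide oxidation genes ETHE1 and SUOX and the sulfurtransferase TST differed by 0.02, 0.03 and -0.04. The other SUOX probe set gave -0.25 (SE 0.087, unadjusted p = 0.0259 in limma), so the SUOX probe sets disagreed. Cysteine oxidation and taurine genes (6, with CDO1) had a median of -0.01 and none at that p. ADO, which makes hypotaurine from cysteamine, differed by -0.05 (SE 0.044). SLC6A6, the taurine transporter, differed by -0.01 in its brightest probe set and by -0.43 (SE 0.11, unadjusted p = 0.00599) in the dimmest of its 5, with adjusted p = 0.472 in limma.

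Cystine and glutathione transport (9 genes) had a median of 0.04, with 2 genes higher and 1 gene lower at that unadjusted p. The 2 higher genes encode both subunits of the cystine importer. SLC7A11, its transport subunit, gave 9.48 and 9.66 in the induced arrays and 9.37 and 9.36 in the controls, a difference of 0.21 (SE 0.068), and its other probe sets gave 0.11 and -0.04. SLC3A2, its heavy chain, gave 10.87 and 10.85 in the induced arrays and 10.72 and 10.77 in the controls, a difference of 0.11 (SE 0.039). The mitochondrial glutathione carrier SLC25A39 differed by -0.14 (SE 0.054).

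Glutathione breakdown and the gamma-glutamyl cycle (11 genes, with CHAC1) had a median of 0.07, with 4 genes higher and 0 genes lower at that unadjusted p. CHAC2, the paralog of CHAC1, gave 9.18 and 9.38 in the induced arrays and 9.12 and 9.02 in the controls, a difference of 0.21 (SE 0.077). GGCT, which releases oxoproline from gamma-glutamyl amino acids, gave 12.38 and 12.32 in the induced arrays and 12.19 and 12.16 in the controls, a difference of 0.17 (SE 0.035). CNDP2, a dipeptidase that can split cysteinylglycine, differed by 0.18 (SE 0.055), and its other probe sets gave 0.14 and 0.06. In each of these genes both induced arrays lay above both controls in the brightest probe set, while the oxoprolinase OPLAH was at -0.18 (SE 0.094). The genes other than OPLAH were named for their small p, which favours such a separation. Across the list the groups did not overlap in 6 genes that were higher and 1 that was lower. Of all 19775 genes this held for 4239 that were higher and 4438 that were lower.

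Enzymes that use glutathione showed small differences. Glutathione reductase, peroxidases and glutaredoxins (14 genes) had a median of 0.04, with 1 higher, the glutaredoxin GLRX2 at 0.15 (SE 0.044), and 0 genes lower at that unadjusted p. Glutathione S-transferases (19 genes) had a median of -0.02 (0.005 after centring), with 0 higher and 2 lower, GSTA4 at -0.16 (SE 0.049) and GSTP1 at -0.11 (SE 0.041).

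The 2 transcription programmes known to act on these enzymes were also listed. NRF2 targets outside glutathione synthesis (10 genes) had a median of -0.05, with 1 gene higher and 2 genes lower at that unadjusted p. Thioredoxin (TXN) differed by 0.11 (SE 0.029), whereas NQO1, a quinone reductase often used as a reporter of NRF2, differed by -0.10 (SE 0.032) and sulfiredoxin (SRXN1) by -0.13 (SE 0.043). All 3 NQO1 probe sets pointed down, from -0.22 to -0.10, and the other TXN probe set gave 0.29 (SE 0.051). ATF4 targets outside the sulfur pathway (14 genes) had a median of 0.10, with 6 higher and 1 lower, PHGDH at -0.17 (SE 0.044). By sign alone 10 of the 14 were higher and 4 lower. The list was already known from earlier results to include ATF3 (0.57), DDIT3 (0.48) and STC2 (0.46).

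**Figure D4:**
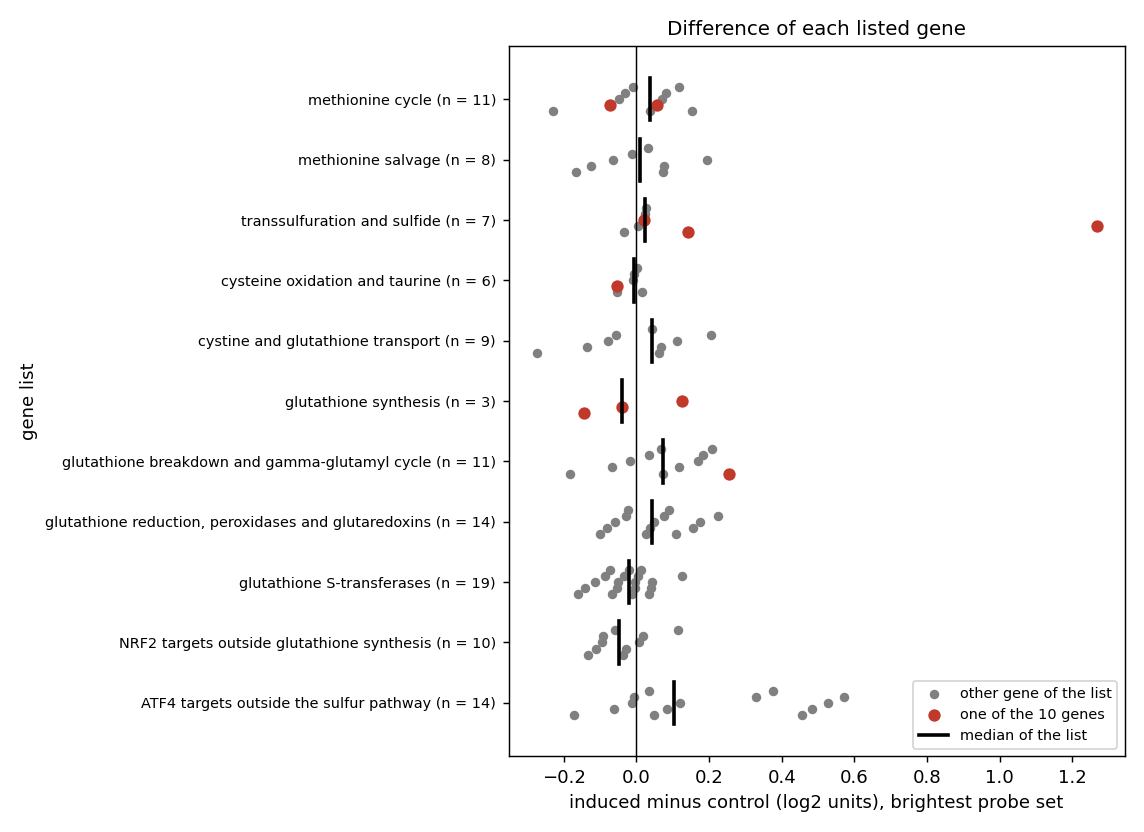
Induced minus control difference (log2 units) of each listed gene in its brightest probe set, with the 10 enzymes in red, other genes in grey and the list median as a black bar. Medians run from -0.05 for NRF2 targets to 0.10 for ATF4 targets, and CTH at 1.27 lies apart from every other listed gene.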

How the data were processed

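Total RNA of 2 induced and 2 control LN-229 cultures was turned into biotin-labelled cRNA, with 1 array per culture. The authors deposited log2 intensities per probe set, for which the submitters' processing notes name RMA and the package affy. Versions are not given in the sources used here. RMA makes the intensity distributions of the arrays equal, so a shift shared by most genes would not be seen. Values ran from 1.70 to 14.5.

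Of 54675 rows, 62 control probe sets were left out of the tests. Gene names came from the platform annotation (41091 probe sets with 1 symbol, 1801 with several, 11721 with none), updated by gene identifier to the RefSeq table of GRCh38.p14, where 41037 matched and 0 symbols changed. Groups came from the sample titles. Differences are induced minus control from limma 3.58.1 in R 4.3.3 (lmFit, eBayes with an intensity trend, 2-sided, Benjamini-Hochberg over all probe sets, threshold 0.05), tested on simulated data first. Standard errors are the moderated ones of that fit. A 2 against 2 design allows no exact permutation p below 0.333, and array number limits the precision.

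The members and lists were chosen with earlier results of these data known. All 10 enzymes are given with every probe set, and each other list names up to 3 members of smallest p with a mean at or above the median level. OPLAH, the further markers and the values of other probe sets were added after their values were seen. A gene is represented by its brightest probe set, and a suffix _s_at or _a_at marks probes that can match several transcripts. Listed genes without a singly named probe set are not used here. 13 alternatives were run: a replicate block, eBayes without trend or robust, 2 filters on dim probe sets, median centring, cyclic loess, probe sets averaged or 1 per gene, and leaving out each array.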

Additional observations from a re-analysis of the deposited data

How the results depend on the processing

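The count of probe sets called over the whole array was 0 as reported and 2 with robust eBayes, 5 after each array was centred on its median, 11 after cyclic loess, and 9 genes each with probe sets averaged or 1 per gene. CTH was among them each time, with differences of 1.27, 1.29, 1.29, 0.92 and 1.27. Averaging or taking 1 probe set per gene tests fewer features and also refits the model, and the cause of the gains was not tested. Of the 20 probe sets, 5 had an unadjusted p under 0.05 as reported, 8 after cyclic loess (6 higher, 2 lower) and 2 of 10 with 1 per gene. With probe sets averaged it was 5 of 10 (4 higher, and GSS lower at -0.092), and the cause of these moves was not tested. Over all 54613 probe sets, 3042 were higher and 2641 lower at that p after cyclic loess. Of all 19775 genes, 1376 were higher and 1052 lower with 1 per gene, and 1009 and 1038 with probe sets averaged. The median over the enzyme probe sets that each alternative kept stayed above 0, from 0.04 to 0.13. The dim filters kept 16 and 19 of the 20, and averaging or 1 per gene left 10.

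With a replicate block the adjusted p of CTH was 0.587, with 4 of the 20 at an unadjusted p under 0.05 and 0 called. Of all 54613 probe sets, 1993 were higher and 2431 lower at that unadjusted p with the block. The labels do not say that a number marks a shared culture, and deviations of same-numbered arrays correlated at 0.056 over probe sets.

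Of 235 recomputed differences of single probe sets 12 changed sign, all from main differences under 0.06 except the dim CBS set 240517_at. Averaging probe sets gave -0.0369 for MAT2A, 0.137 for GCLC and 0.0232 for CDO1, since probe sets of these genes disagree. Leaving out each array in turn gave -0.00371 to 0.116 for the brighter MAT2A set, -0.0207 to 0.0785 for the CBS set 212816_s_at, -0.0533 to 0.435 for 240517_at and -0.0886 to 0.00906 for the brightest GCLC set. The same gave -0.0817 to 0.000292 for the dimmer GSS set, -0.0270 to 0.0709 for MPST and -0.324 to 0.218 for the brighter CDO1 set. Besides these 7, another 7 of the 20 kept their sign but moved by over 1.5 times when 1 array was left out. Of these, the dim GCLC set 1555330_at (0.24 to 0.47) and the dimmer CDO1 set (0.0095 to 0.19), are given here, and the others stand beside their values above.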

Other observations

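Markers of other cell types were looked at beside these enzymes, with 0 genes passing an adjusted p of 0.05. Astrocyte and glioma markers (12 genes) had a median difference of -0.05. Before adjustment (p under 0.05) 0 of these genes were higher and 4 lower, among them FABP7 at -0.19 and SOX2 at -0.15. Of all genes, 6.48% were higher and 4.73% lower at that p. Epithelial markers (6 genes) had a median of -0.06, leukocyte markers (4 genes) of -0.003 and endothelial markers (6 genes) of -0.01, where the last 2 were positive after centring (0.02 and 0.01). Neuron markers (6 genes) had a median of 0.03, with SYT1, a synaptic vesicle protein, at 0.35 and the microtubule protein MAP2 at -0.23. These were the 1 higher and the 1 lower neuron marker at that p. The other SYT1 probe set gave 0.09 (SE 0.076) with overlapping groups, and the other MAP2 probe set gave -0.14 (SE 0.071). Among endothelial markers 1 gene was higher, the dim TEK at 0.32, and 0 lower. The epithelial and leukocyte lists had 0 genes past that p in either direction. The part of these marker genes in the values of the 10 enzymes was not tested.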
